A study of Mus musculus with 6 samples.

Results

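The genes described here make, bind, sense and destroy retinoic acid, the acid form of vitamin A. They are the 10 genes Aldh1a1, Aldh1a2, Aldh1a3, Rbp4, Cyp26a1, Cyp26b1, Crabp1, Crabp2, Rarb and Rxrg, taken by symbol from a table of 33924 genes. RNA came from RPE/choroid, the retinal pigment epithelium together with the vascular layer beneath it, which was scraped from the sclera of C57BL/6J mice after the neural retina had been lifted off. There were 3 libraries from young and 3 from aged mice of this wild-type inbred strain, with no treatment in either group. The labels give the young mice as 1 to 2 months old, and the aged mice as 20 to 24 months in the titles and 22 to 24 months in the time label. All 6 libraries are labelled male. In the study's methods, however, mice of either sex were used and the young group was somewhat older, so sex and age are uncertain to that extent.

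The table gives 1 value per gene that does not belong to the authors' own comparison of the ages. That value is the mean of normalized counts over the 6 libraries. A mean over young and aged mice together carries no difference between them, so no change with age is reported, and no SD, test or interval could be computed. What the mean does give is how strongly each gene of the pathway was read in this tissue. In some families it also gives which paralog was the more abundant, while in others the order turned with the length used.

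Retinoic acid is made from retinol in a pair of oxidation steps. Retinol dehydrogenases give retinaldehyde, and the retinaldehyde dehydrogenases Aldh1a1, Aldh1a2 and Aldh1a3 turn it irreversibly into retinoic acid. The acid enters the nucleus, where it binds heterodimers of a retinoic acid receptor (RAR) and a retinoid X receptor (RXR) on DNA, and Cyp26 enzymes hydroxylate it for removal. In the eye the pathway shares its retinol supply with the visual cycle of the RPE, and the choroid is known as a source of retinoic acid in the control of eye growth.

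All 10 genes were read in the tissue. The authors' mean was above 100 normalized counts for 8 of them and under 30 for Crabp1 and Rbp4, and together the 10 genes held 6374 of the 19192071 normalized counts in the table. Longer genes collect more reads, so levels of different genes were compared mainly after division by the length of all exons of the gene, in normalized counts per kb. Other lengths and undivided means are named where they are used. Ordered in this way, the genes ran Aldh1a2, Aldh1a1, Rarb, Cyp26a1, Cyp26b1, Crabp2, Aldh1a3, Rxrg, Crabp1 and Rbp4, from 517 down to 10.4 per kb. The median of the 22827 genes read above 0 that had a length was 37.9 per kb, and 8 of the 10 genes lay above it. Against the median of protein-coding genes alone, 76.7 per kb, the number was 6, because Aldh1a3 and Rxrg then lay below.

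**Figure D1:**
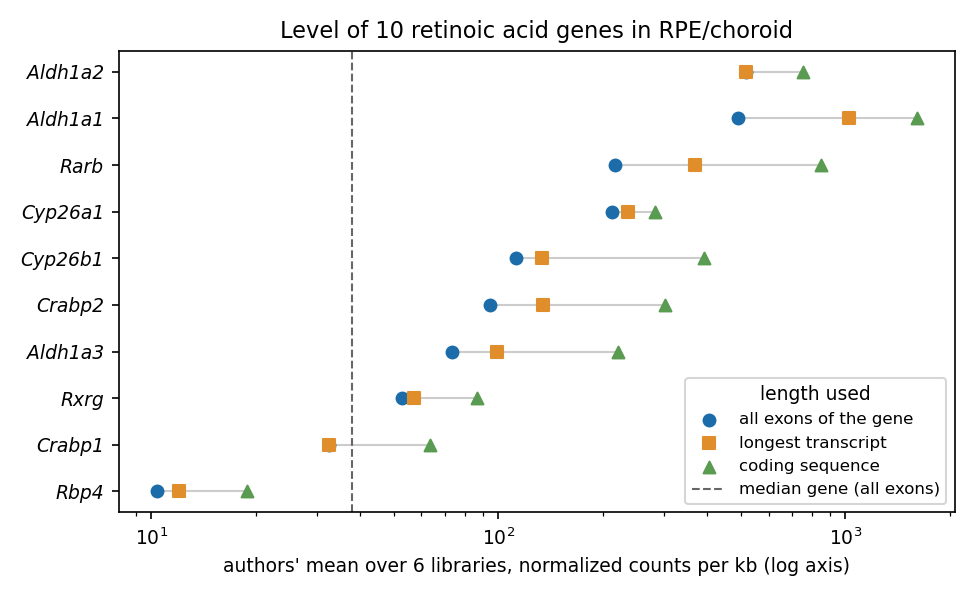
Level of each of the 10 genes as the authors' mean over 6 libraries, in normalized counts per kb on a log axis, divided by the length of all exons (circles), of the longest transcript (squares) or of the coding sequence (triangles). The dashed line is the median gene at 37.9 per kb of exon. Aldh1a1 and Aldh1a2 stand at the top and Rbp4, at 10.4 per kb of exon, at the bottom by each of these lengths except that Rarb passes Aldh1a2 by coding length.

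Among the 10 genes, which hold only Rarb and Rxrg of the 6 RAR and RXR genes, the synthesis enzymes had the highest summed level of any role, and most of it came from a pair of paralogs. Aldh1a1, on chromosome 19 at 20492715 to 20643465 (GRCm38, plus strand), had an authors' mean of 2411 normalized counts, the highest of the 10 genes before division by length. Divided by its 4937 bases of exon this was 488 per kb, a level above 92.2% of the genes compared. Aldh1a1 encodes a cytosolic dehydrogenase that is known from the dorsal part of the neural retina. Aldh1a2, on chromosome 9 at 71215789 to 71296243 (plus strand), had an authors' mean of 1170 and, with 2264 bases of exon, a level of 517 per kb, above 92.7% of genes. This is the main retinaldehyde dehydrogenase of the early embryo. Aldh1a3, on chromosome 7 at 66390890 to 66427517 (minus strand), was much the lowest of the family, with an authors' mean of 340 and a level of 73.7 per kb. In the embryo Aldh1a3 is known from the ventral retina and the nasal region.

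Which of Aldh1a1 and Aldh1a2 was the higher depended on the length used. Per kb of exon Aldh1a1 stood at 0.945 times Aldh1a2, and per kb of its longest transcript, which has 2358 bases, at 1.98 times. Without any division the ratio of the authors' means was 2.06. The annotation lists 6 transcripts for Aldh1a1 and 1 for Aldh1a2, so the exons of Aldh1a1 add up to more than any of its transcripts holds. Aldh1a3 was lower than both by every length tried, at 73.7 against 517 per kb of exon for Aldh1a2, a ratio of 7.02. Its share of the summed level of the 3 genes was 6.83% per kb of exon and 8.58% per kb of coding sequence. A close relative, Aldh1a7, which lies outside the 10 genes and was looked at after the values were known, had an authors' mean of 80.3 and a level of 38.9 per kb.

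The degrading enzymes were both read. Cyp26a1 and Cyp26b1 are cytochrome P450 enzymes that hydroxylate retinoic acid, and Cyp26a1 is a textbook target of retinoic acid itself. Cyp26a1, on chromosome 19 at 37697798 to 37701536 (plus strand), had an authors' mean of 423 and a level of 213 per kb, above 80.6% of genes. Cyp26b1, on chromosome 6 at 84571414 to 84593908 (minus strand), had 602 and 112 per kb, above 68.5% of genes. Their order turned with the length, since Cyp26b1 has 5352 bases of exon but only 1536 of coding sequence. Per kb of exon Cyp26a1 was at 1.90 times Cyp26b1, and per kb of coding sequence at 0.723 times. The remaining paralog, Cyp26c1, was low at an authors' mean of 26.6 and 15.2 per kb, which is 4.47% of the family's sum per kb of exon and 2.47% per kb of coding sequence. Summed per kb of exon, the 3 synthesis enzymes stood at 1079 and Cyp26a1 with Cyp26b1 at 325, a ratio of 3.32. This ratio was 4.43 by longest transcripts and 3.82 by coding length. It compares RNA levels and says nothing of enzyme activity.

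Rarb and Cyp26a1 are classic genes whose promoters carry a retinoic acid response element, a direct repeat of a short half-site on which the RAR and RXR pair sits. The promoter sequences were therefore searched, and the matches found are shown. RefSeq windows of 250 bases before and 50 after the start of transcription (GRCm38.p6) were found for 8 of the 10 genes, in 11 windows. Aldh1a3 and Crabp2 had none and were not searched. The search was for AGGTCA or AGTTCA followed, after a gap of 5 bases, by AGGTCA or AGTTCA, on either strand, and these words do not overlap in a match. It found a match in 1 of the 11 windows, that of Cyp26a1. Among all 32851 windows 13 matched, or 0.0396%. When GGGTCA and GGTTCA were also allowed as half-sites, a choice made after the first result was known, 32 of all windows matched, or 0.0974%, and among the 11 they were those of Cyp26a1 and Rarb. With a gap of 2 bases, 0 of the 11 windows matched under either choice, against 0.0396% and 0.268% of all windows. Both matches are printed here in the direction of the repeat over 30 bases, with the repeat and its gap in capitals. Both are read on the minus strand of GRCm38.p6, at chr19:37697769-37697798 for Cyp26a1 and at chr14:16575506-16575535 for Rarb.

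Cyp26a1: caaattAGTTCACCCAAAGTTCAtctttaa
Rarb: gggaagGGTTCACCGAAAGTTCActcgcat

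In Cyp26a1 the match runs against the direction of the gene and lies 16 to 32 bases before the RefSeq start, which is further downstream than the GENCODE start of the gene given above. In Rarb it runs with the gene and lies 37 to 53 bases before the RefSeq start of its window, an internal start far downstream of the outermost start of the gene, and inside an exon that GENCODE gives to Rarb. The Cyp26a1 match is shown in its promoter up to the GENCODE start, read along the gene from chr19:37697558-37697797 on the plus strand, with the repeat in capitals.

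Cyp26a1 promoter: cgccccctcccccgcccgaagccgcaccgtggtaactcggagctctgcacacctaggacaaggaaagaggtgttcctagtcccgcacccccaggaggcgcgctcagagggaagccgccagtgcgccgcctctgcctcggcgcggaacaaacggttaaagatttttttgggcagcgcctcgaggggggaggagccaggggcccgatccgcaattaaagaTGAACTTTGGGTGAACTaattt

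These matches describe letters in a window, and binding was not measured. At the level of RNA, both genes that hold a match stood side by side in the order, with 217 per kb of exon for Rarb and 213 for Cyp26a1. This closeness held per kb of exon only. Rarb was at 1.56 times Cyp26a1 by longest transcript, 3.00 times by coding length and 2.70 times without division, and part of its sequence is shared with a gene on the other strand, as described further on.

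Among the receptors, Rarb had a high level for a gene of its kind and Rxrg did not. Part of the Rarb sequence is shared with Top2b, a gene on the other strand, so its level is less certain, as described further on. Rarb encodes retinoic acid receptor beta and lies on chromosome 14 at 16430839 to 16819156 (minus strand). Its authors' mean was 1142, and its level of 217 per kb was above 80.9% of genes. It was the highest of the 3 RAR genes by each length tried, but only just above Rarg, which stood at 196 per kb, a ratio of 1.10. By longest transcript this ratio was 1.30. Rara was lower, at 65.7 per kb, and Rarb made up 45.3% of the summed RAR level. Rxrg encodes retinoid X receptor gamma, which in the retina is known from cone photoreceptors, and lies on chromosome 1 at 167598384 to 167639623 (plus strand). It had an authors' mean of 121 and a level of 52.6 per kb, above 54.8% of genes. Rxra was the main RXR gene, at 420 per kb and 64.4% of the summed RXR level, and Rxrb followed at 180 per kb, so that Rxrg held 8.05%. By coding length the share of Rxrg was 3.99%.

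**Figure D2:**
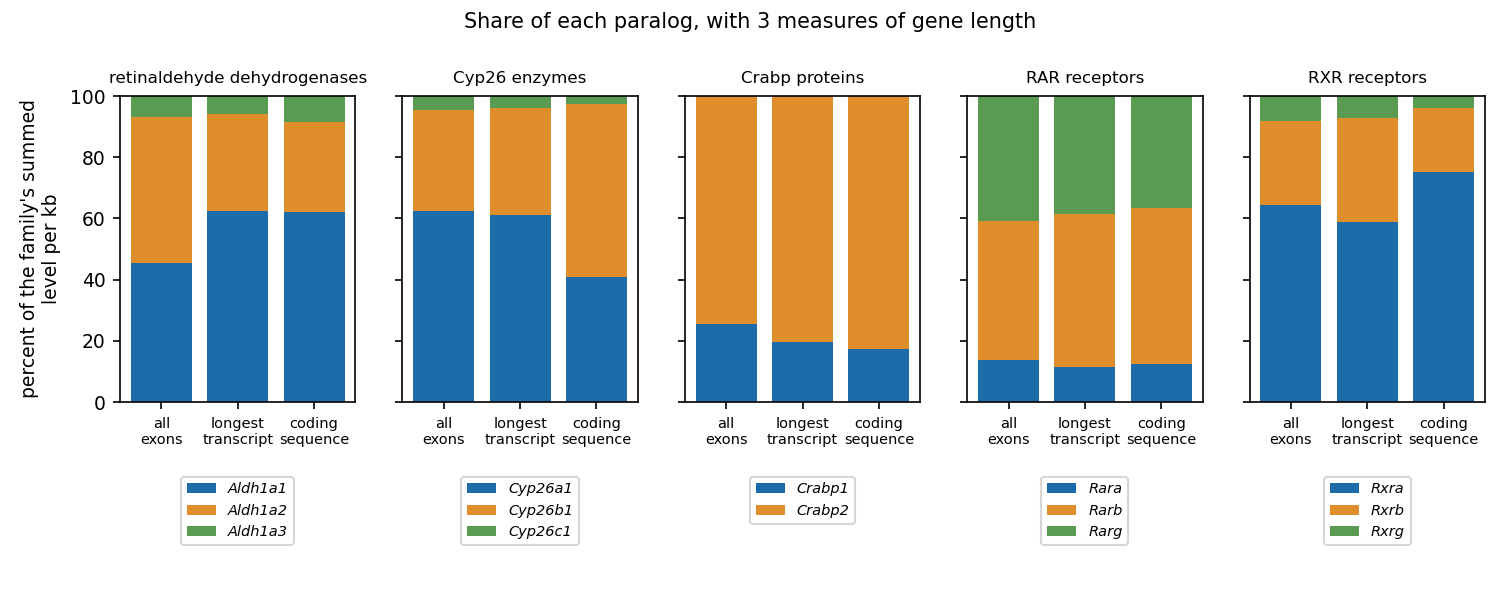
Share of each paralog in the summed level of its family, in percent, with the authors' mean divided by the length of all exons, the longest transcript or the coding sequence. Crabp2, Rarb and Rxra hold the largest share of their families by all 3 lengths, whereas Aldh1a1 and Aldh1a2, and Cyp26a1 and Cyp26b1, change places.

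The binding proteins in the cytosol were less abundant. Crabp2, known for handing retinoic acid to the RAR, lies on chromosome 3 at 87948666 to 87953376 (plus strand) and had an authors' mean of 125 and a level of 94.5 per kb. Crabp1, which binds retinoic acid in the cytosol with high affinity, lies on chromosome 9 at 54764748 to 54773110 (plus strand) and had 26.1 and 32.6 per kb, under the median gene. Crabp2 was higher than Crabp1 by every length, with a ratio of 2.90 per kb of exon and 4.75 per kb of coding sequence. Rbp4 was the lowest of the 10 genes. It encodes the plasma carrier that brings retinol from the liver to the eye, and lies on chromosome 19 at 38116629 to 38125281 (minus strand). Its authors' mean was 13.9 and its level 10.4 per kb, above 34.0% of genes, and Aldh1a2 stood at 49.9 times this level. This ratio was 43.2 by longest transcript, 39.8 by coding length and 84.2 without division.

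The rest of the pathway was described from lists of genes, 33 in all beside the 10, of which 32 were read above 0 and 24 lay above the median gene. Among the genes that take up and store retinol, Ttr, Lrat and Stra6 stood above all of the 10 genes. Ttr, the transthyretin that carries Rbp4 in plasma, reached 83745 per kb, while Rbp4 itself stood at 10.4. Lrat, which esterifies retinol, had 4712 per kb, and Stra6, the receptor for Rbp4, 751. Rbp7 was the lowest of this list at 10.9 per kb. In this list 5 of 6 genes lay above the median gene.

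In retinol oxidation, Rdh10 and Rdh5 had the highest levels. Rdh10, the dehydrogenase known to supply retinaldehyde for retinoic acid in the embryo, had an authors' mean of 19145 and a level of 4602 per kb of exon. This was 8.90 times the level of Aldh1a2, and the ratio was 10.3 by longest transcript, 24.8 by coding length and 16.4 without division. Rdh5, an enzyme of the visual cycle, had 3576 per kb of exon. Their order turned by longest transcript, with 7559 per kb for Rdh5 and 5337 for Rdh10. Dhrs3, which turns retinaldehyde back to retinol, had 981, and Rdh11 had 665. The lowest were Rdh1 with 8.46, Rdh16 with 2.59 and Dhrs9 with 2.30 per kb. Of the 10 genes in this list, 7 lay above the median gene.

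Of the coregulators, 6 of 7 lay above the median gene, and they ran from 35.0 per kb for Nrip2 to 316 for Ncor1, the corepressor of unliganded receptors. Fabp5 and Ppard make up another route for retinoic acid. Fabp5, its binding protein, stood at 763 per kb, above Crabp2, and the receptor Ppard stood at 18.1. The list of classic responsive genes has 7 members, 3 of which belong to the 10 genes and 1 to the lists above. Dhrs3, Tgm2, Rarb, Cyp26a1 and Crabp2 lay above the median gene, Tgm2 with 473 per kb. Stra8, a germ-cell gene, had an authors' mean of 0.301, and Hoxb1 was listed at 0.

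**Figure D3:**
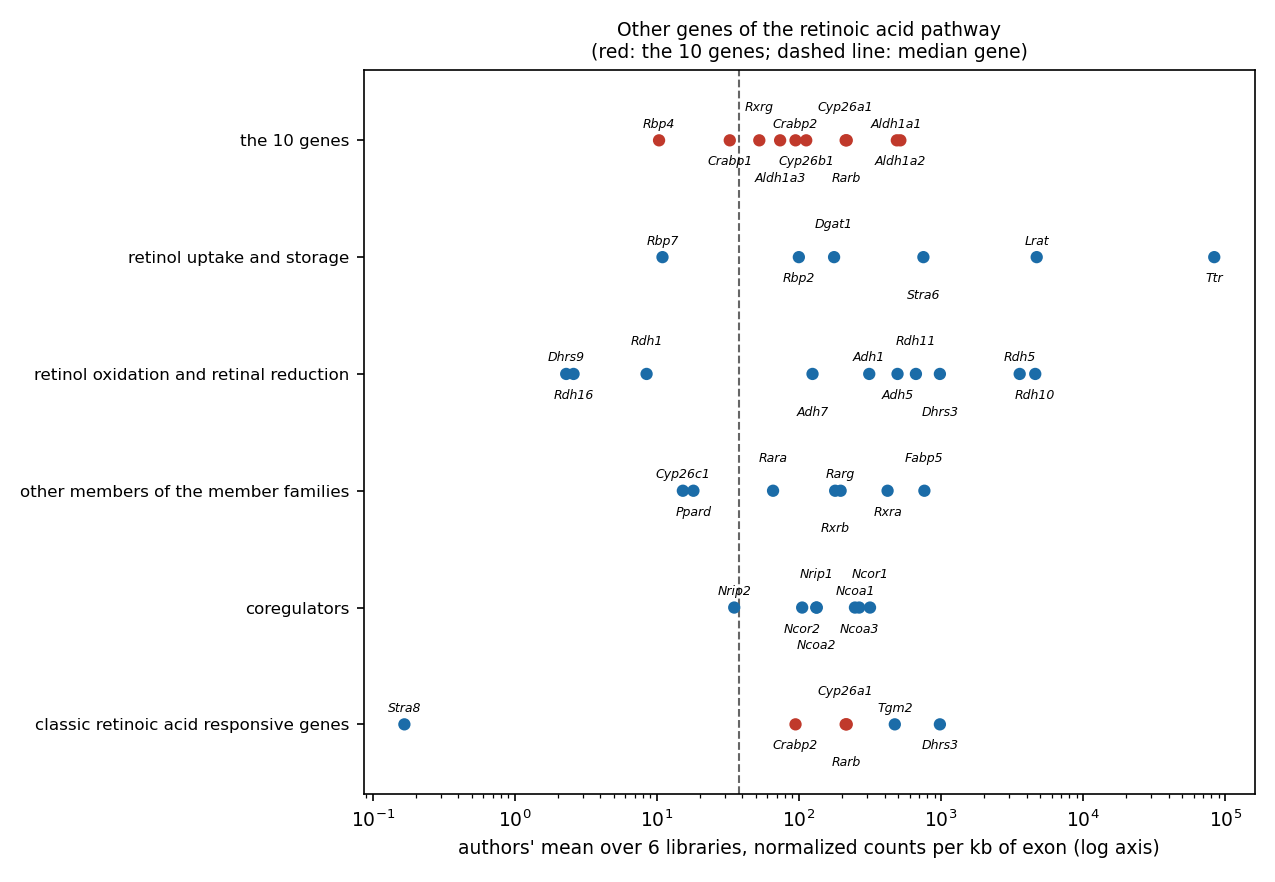
Level of the 10 genes (red) and of the other pathway genes (blue) by list, as the authors' mean over 6 libraries in normalized counts per kb of exon on a log axis. Hoxb1, listed at 0, is not drawn. Ttr, Lrat and Rdh10 lie to the right of all 10 genes, and Rbp4 to the left of the median gene at 37.9 per kb.

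Because RPE/choroid is a mixed tissue, markers of its cell types and of neighbouring ones were read in the same way. In bulk RNA, fewer cells of a type and less RNA per cell cannot be told apart. Of 8 RPE markers 7 lay above the median gene, among them Rpe65, the retinoid isomerase, at 22619 per kb. The exception was Best1, at 27.1 per kb. All 5 melanocyte, all 5 endothelial and all 6 fibroblast and stroma markers were above it, from 244 per kb for Cdh5 to 25159 for Pmel. Of the melanocyte markers, Dct, Tyrp1, Pmel and Mlana are pigment genes, which RPE also makes, and Sox10 stood at 364 per kb. Markers of cells outside the scraped layer were present as well. The 5 rod photoreceptor markers ran from 1017 to 7975 per kb, the 4 cone markers from 43.1 for Pde6h to 356 for Opn1sw, and the 3 lens crystallins from 612 to 951. Markers of Mueller glia other than Rlbp1, which RPE also makes, were Aqp4 at 130, Slc1a3 at 133 and, far above these, Glul at 8609. The 3 retinal neuron markers in the table ran from 46.4 to 164. Of the 3 ciliary body and iris markers only Wfdc1, at 609 per kb, lay above the median gene. The level of Rxrg, 52.6 per kb of exon, was above that of Pde6h and under those of the other 3 cone markers, which began at 213 for Arr3. By coding length Rxrg, at 86.9 per kb, was under all 4, the lowest of which was Arr3 at 439. The levels of Aldh1a1 and Aldh1a2 were under all 5 rod markers. Which of these cells the 10 transcripts came from was not tested.

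**Figure D4:**
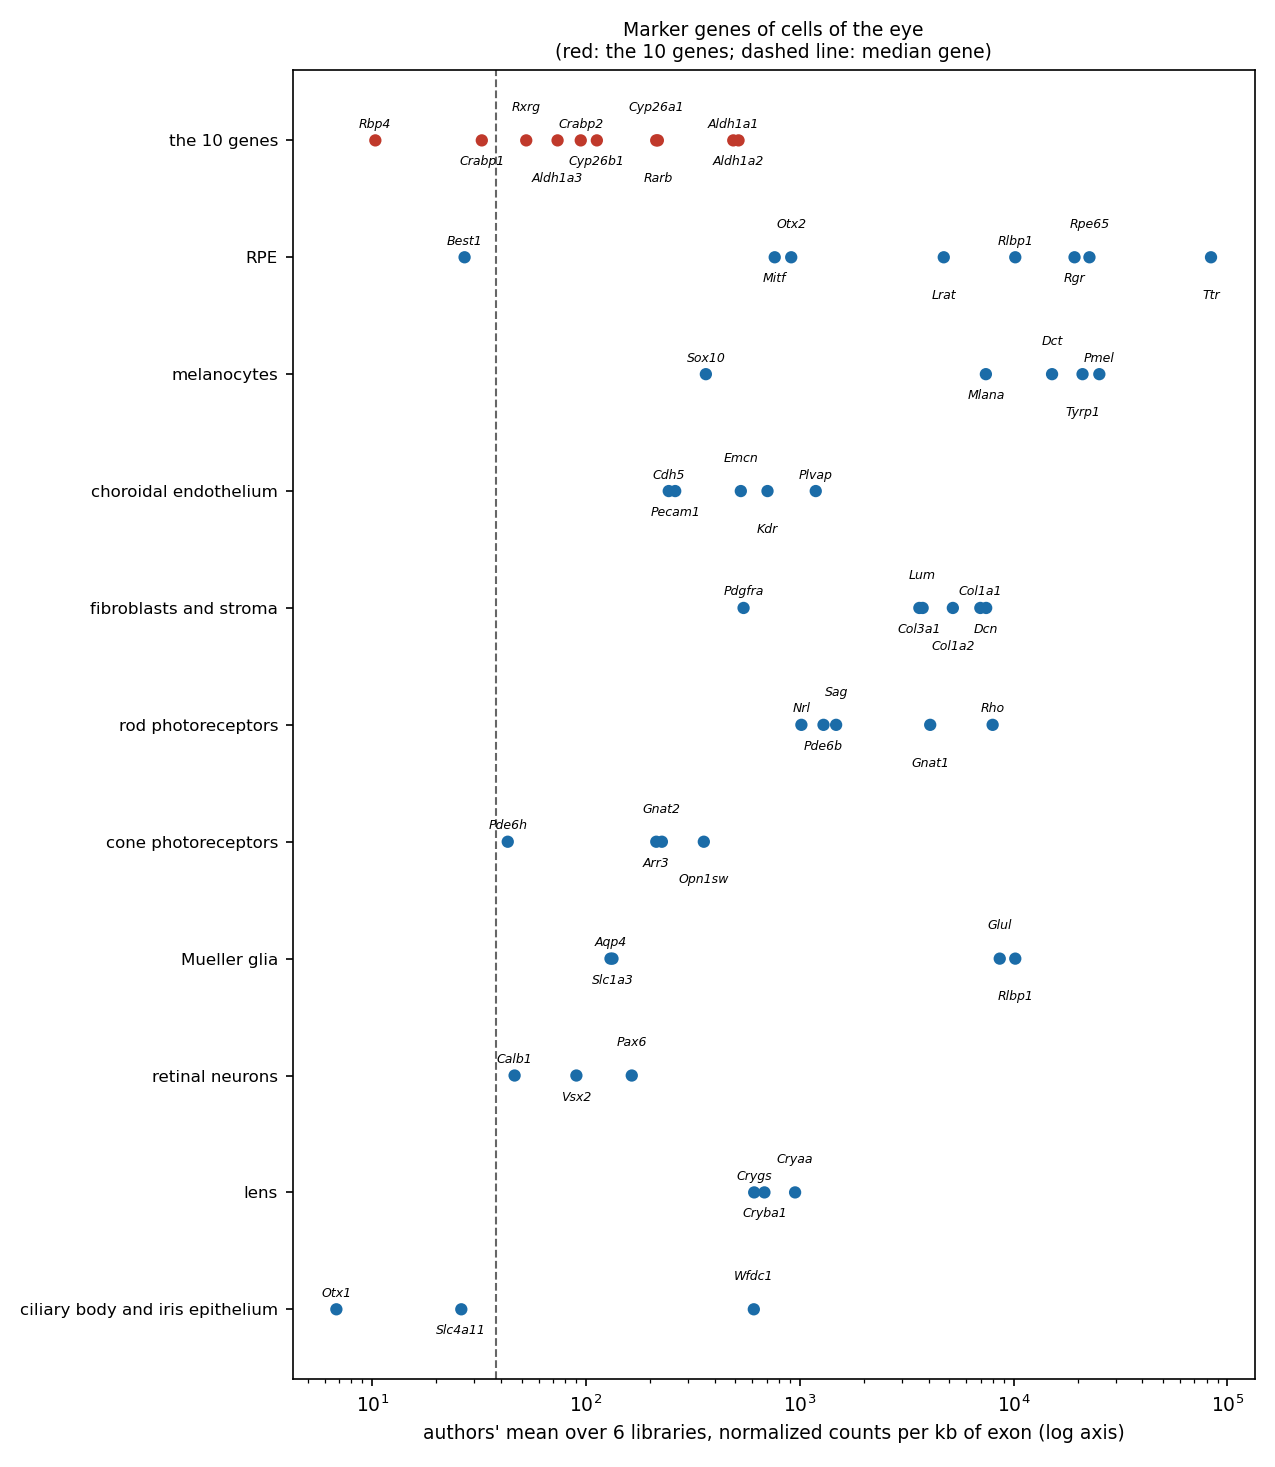
Level of the 10 genes (red) and of marker genes of cells of the eye (blue), as the authors' mean over 6 libraries in normalized counts per kb of exon on a log axis. The RPE markers other than Best1 lie above all 10 genes, from 763 per kb upwards, and the rod markers from 1017 per kb upwards.

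How far a value belongs to a single gene was read from the sequences of the transcripts. For 6 of the 10 genes (Aldh1a2, Rbp4, Cyp26a1, Cyp26b1, Crabp1 and Crabp2) each stretch of 31 bases occurred in no other annotated gene. For Rxrg the share was 99.6% and for Aldh1a3 97.7%. Aldh1a1 shared 281 of its 4934 stretches of 31 bases with Aldh1a7, and 1 stretch of 100 bases, the length of a read. Rarb stood apart, because only 64.3% of its stretches were its own, counting both strands. It shared 1712 of 5341 with Top2b, a neighbouring gene on the other strand that overlaps its end. The libraries were made with a stranded kit, but the sources used here do not state that strand was used in counting. The level of Rarb, and its place above Rarg and next to Cyp26a1, are therefore less certain than those of the other genes.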

How the data were processed

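RNA from RPE/choroid, a pair of eyes per sample, was taken for 3 young and 3 aged samples, depleted of ribosomal RNA without selection for poly(A) tails and made into stranded libraries. Reads were trimmed (BBDuk) and aligned to GRCm38 with the Ensembl transcripts (STAR) by the authors, who then estimated transcript abundance with Sailfish, turned it into normalized counts by total count and ran DESeq2. Of the deposited columns only baseMean was used, a signal in normalized counts averaged by the authors over the 6 libraries. The other 5 columns (log2 fold change, its standard error, test statistic, p and adjusted p) are the authors' comparison of young with aged mice and were not used. No column names a sample, so the planned test of age could not be run, and depth per library is unknown here. In place of depth, the values summed to 19192071 normalized counts, and 7243 genes were listed at 0.

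Means were divided by gene length from GENCODE M21, which is on GRCm38 but is a later release than the authors' annotation. A unique symbol there gave a length to 22827 of the 26681 genes above 0, which hold 91.6% of the summed signal. The deposited means do rise with length, which does not settle how they were derived. Their median was 35.9 in the shortest of 8 bins of protein-coding genes by longest transcript, and 1033 in the longest bin. Per kb of that transcript the medians were 39.5 and 131. The genes named are the 10 genes, 5 pathway lists and 10 marker lists, without 2 listed genes that are not reported here, and a few genes of the nuclear receptor and aldehyde dehydrogenase families, which were listed after the values were seen. The members and lists were chosen with earlier results of these data known. Stretches of 31 and 100 bases were compared over all GENCODE M21 transcripts and both strands. Python 3.11.15 with pandas 2.3.3 was used, and the counting functions were tested on simulated sequences. Alternatives were the longest transcript, the coding length, no division by length, protein-coding genes, and a mean of at least 10. The planned identity of reference proteins was not analysed here.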

Additional observations from a re-analysis of the deposited data

How the results depend on the processing

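No paired analysis was possible because the only values used are means over all 6 libraries. The replicate block, leaving out each replicate, and other normalizations and filters of a test of age were not run either. Depth per library is unknown and the means have no error here, so differences between genes carry no test.

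A change of over 1.5 times was counted as a move. Of 89 values recomputed, 54 moved less, 30 moved more and 5 changed direction. The log2 ratio of Aldh1a1 over Aldh1a2, -0.08 per kb of exon, was 0.98 by longest transcript, 1.09 by coding length and 1.04 without division. That of Cyp26a1 over Cyp26b1, 0.92, was -0.47 by coding length and -0.51 without division. Those that kept their direction but moved were Aldh1a2 over Aldh1a3 (2.81, against 1.77 by coding length and 1.78 without division), Aldh1a1 over Aldh1a3 (2.73, against 3.37 by longest transcript), Crabp2 over Crabp1 (1.54, against 2.25 by coding length and 2.26 without division) and Rxra over Rxrg (3.00, against 4.24 and 4.25). Rarb over Cyp26a1, 0.03, was 0.64 by longest transcript, 1.58 by coding length and 1.43 without division. The lengths themselves differ in these settings. The ratios of Rarb over Rarg and over Rara did not move, but no choice of length removes the sequence that Rarb shares with Top2b. The number of the 10 genes above the median gene was 8, and 8 without division by length, 6 among protein-coding genes and 6 among genes with a mean of at least 10. For the 33 other pathway genes it was 24, and 23 among protein-coding genes and 25 without division.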

Other observations

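The receptors and the dehydrogenases were also placed in their wider families, listed after the values were known. Of 49 nuclear receptor genes with a length, 48 were read above 0. Rarb ranked 9 among them per kb of exon, 8 by longest transcript and 9 by coding length. The sequence it shares with Top2b makes this rank less certain too. The highest was the clock receptor Nr1d2, at 1442 per kb, and the glucocorticoid receptor Nr3c1 had 630. The photoreceptor receptor Nr2e3 had 444 per kb, above Rarb. Rxrg ranked 32.

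Among 20 aldehyde dehydrogenase genes, Aldh1a2 ranked 3 and Aldh1a1 ranked 4 per kb of exon, and by coding length Aldh1a1 ranked 3 and Aldh1a2 ranked 8. The genes above both were Aldh3a1, best known as an abundant protein of the cornea, at 1893 per kb, and the mitochondrial Aldh2 at 1099. Aldh8a1, which can oxidise 9-cis-retinal, was the lowest of the family at 0.896 per kb.

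Best1, a defining RPE gene, had an authors' mean of 69.8, and Rpe65 stood at 836 times its level per kb of exon. Of the stretches of 31 bases in Best1, 98.8% are its own. Why Best1 was read at this level was not tested. Ttr stood at 83745 per kb and Rbp4, the protein it carries in plasma, at 10.4.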
